A study of Drosophila melanogaster with 4 samples.

Results

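The X chromosome of Drosophila melanogaster is described here by the positions at which the methylase fusion Dam-Pr-set7 left a summit of methylated DNA in larval neural stem cells. The summits are those with an end coordinate of at most 22000000 on X (genome build dm6), which takes in the euchromatic arm and leaves out the sequence next to the centromere. There were 883 of them among 7157 summits in all, 390 of 2876 in replicate 1 and 493 of 4281 in replicate 2. The limit fell in a stretch without summits. The last summit inside it lay at 21604535 in replicate 1 and 21390616 in replicate 2, and the first beyond it lay at 22593155 and 22593244, with 20 and 33 fragments inside and 17 fragments in each replicate outside.

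Pr-set7, also called SETD8, places a single methyl group on a lysine in the tail of histone H4, a mark tied to mitosis, replication control and chromatin compaction. In targeted DamID the bacterial methylase Dam, fused to a protein of interest and expressed at a low level in chosen cells, methylates adenines in GATC motifs close to where the fusion protein sits. On the X chromosome of Drosophila males the dosage compensation complex raises transcription and acetylates a neighbouring lysine of the same histone tail, so X differs from the autosomes in its chromatin in that sex.

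The study had 4 samples in 2 batches, each batch with 1 sample of UAS-Dam-Pr-set7 (construct pUASTattB-LT3-NDam-Pr-set7) and 1 of UAS-Dam, all driven by grh-Gal4 and all taken 24 h after larval hatching. Animals hatched at 25 °C and were then kept at 29 °C until dissection. Summit lists of both Dam-Pr-set7 samples gave every value below. Libraries with Dam by itself are not analysed here, and the background of free Dam is therefore unknown at each summit. Expression is limited to cells in which grh-Gal4 is active, and summits give no expression level, so the labelled cell type cannot be checked with marker levels. The labels do not give the sex of the larvae, so the number of X copies per cell is unknown, and its part in any difference between X and autosomes was not tested. By the series' design text each batch held 1 Dam-Pr-set7 sample, so the 2 samples differ in batch, and batch and replicate cannot be told apart. With 1 group of 2 samples no test over samples was possible; the intervals given are 95% exact intervals that cover counting error only.

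X carried fewer summits for its length than each of the 4 large autosomal arms in both replicates. Replicate 1 had 17.7 summits per Mb on X, against 22.1 per Mb on the autosomal arms together, where single arms ran from 20.6 on 3R to 24.0 on 2R. Replicate 2 had 22.4 per Mb on X, against 33.8 per Mb on the autosomal arms, where single arms ran from 31.1 on 3L to 36.6 on 2L. The density on X was thus 0.803 times that of the autosomes in replicate 1 (interval 0.719 to 0.894) and 0.664 times in replicate 2 (0.603 to 0.730). No autosomal arm was as sparse as X in either replicate. The autosomal lengths include gene-poor sequence near the centromeres, which the limit removes from X; against autosomal 1-Mb windows with at least 50 protein-coding genes the ratio was 0.725 in replicate 1 and 0.591 in replicate 2. The number of summits grew by a factor of 1.26 between replicates 1 and 2 on X, against 1.53 on the autosomal arms, so the gap was wider in the longer list.

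X was also poorer in genes. It held 97.2 protein-coding genes per Mb, against 107.1 on the autosomal arms with their gene-poor sequence near the centromeres. Autosomal 1-Mb windows with at least 50 protein-coding genes held a mean of 124.6. Counted per 100 protein-coding genes, X had 18.2 summits in replicate 1 and 23.1 in replicate 2, against 20.6 and 31.5 on the autosomal arms. The ratio of X to autosomes was then 0.885 (interval 0.793 to 0.985) in replicate 1 and 0.732 (0.665 to 0.804) in replicate 2.

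Tall summits were scarce on X. Each height, the number of fragments piled up at the summit, was ranked as a percentile within its own list, because heights are not scaled to depth. The median percentile on X was 48.5 (interval 42.1 to 52.9) in replicate 1 and 46.1 (42.9 to 50.5) in replicate 2, against 50.7 and 50.5 on the autosomal arms. Intervals for X and autosomes overlapped in both replicates, so the middle of the distribution was not told apart. Above the 90th percentile X held 29 summits in replicate 1 and 33 in replicate 2, which is 7.44% (interval 5.04 to 10.5%) and 6.69% (4.65 to 9.27%) of its summits, against 10.4% and 10.5% of autosomal summits. In density that was 1.32 such summits per Mb on X and 2.30 on the autosomal arms in replicate 1, a ratio of 0.573 (interval 0.376 to 0.844). In replicate 2 it was 1.5 per Mb on X and 3.54 on the autosomal arms, a ratio of 0.424 (interval 0.287 to 0.605). These intervals overlapped those of the ratios for all summits, and that difference was not tested.

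**Figure D1:**
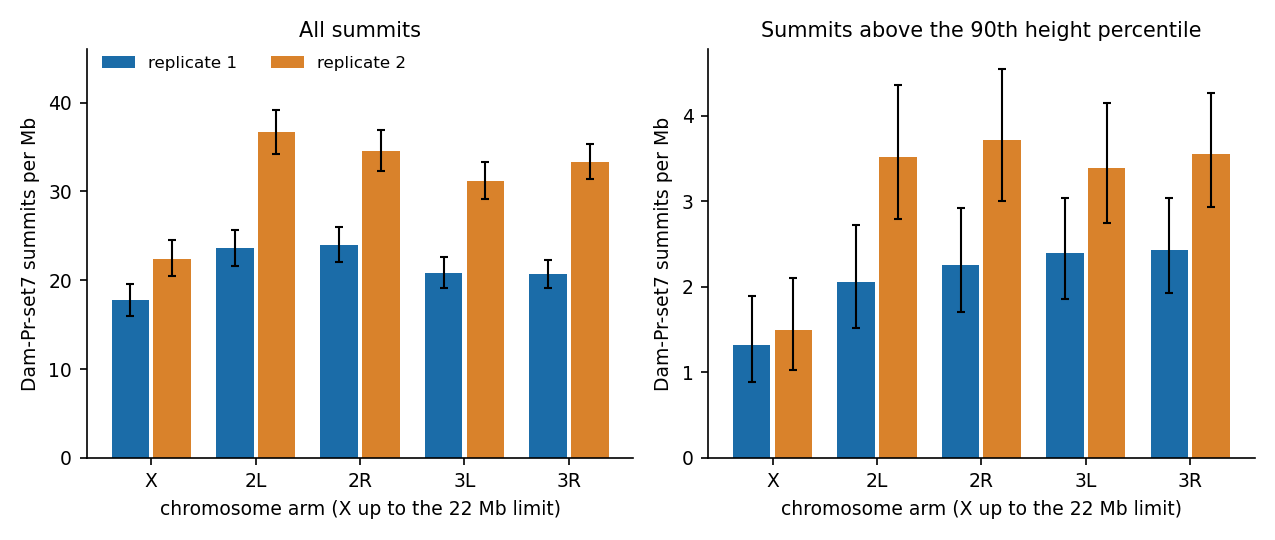
Dam-Pr-set7 summits per Mb on X and on the 4 large autosomal arms, for all summits (left) and for those above the 90th height percentile of their list (right); bars start at 0, colours mark the replicates and error bars are 95% exact Poisson intervals of the counts. X is the lowest arm in every panel and replicate, with 17.7 and 22.4 summits per Mb in replicates 1 and 2.

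Along the arm, summits were spread unevenly, and how closely the replicates went together varied with the window borders. The 22 windows of 1 Mb held 8 to 26 summits in replicate 1 (median 20) and 11 to 33 in replicate 2 (median 23). On the autosomal arms the 108 windows had medians of 23 and 35 summits. Of the 22 X windows, 19 in replicate 1 and 22 in replicate 2 lay below those autosomal medians. Window counts of the replicates went together over the 22 windows of X (Pearson's r = 0.82, Spearman's rho = 0.80, given without a test because windows share an arm, its genes and its GATC sites). With the windows shifted by 0.5 Mb, rho was 0.53.

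The window counts on X followed gene number little. Spearman's rho between protein-coding genes and summits per window was 0.06 in replicate 1 and 0.24 in replicate 2 over the 22 X windows. Over the 108 autosomal windows it was 0.61 and 0.65. Part of the autosomal value came from gene-poor windows of a kind X lacks: the 92 autosomal windows with at least 50 genes gave 0.48 and 0.50. The difference between X and autosomes in these correlations was not tested.

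**Figure D2:**
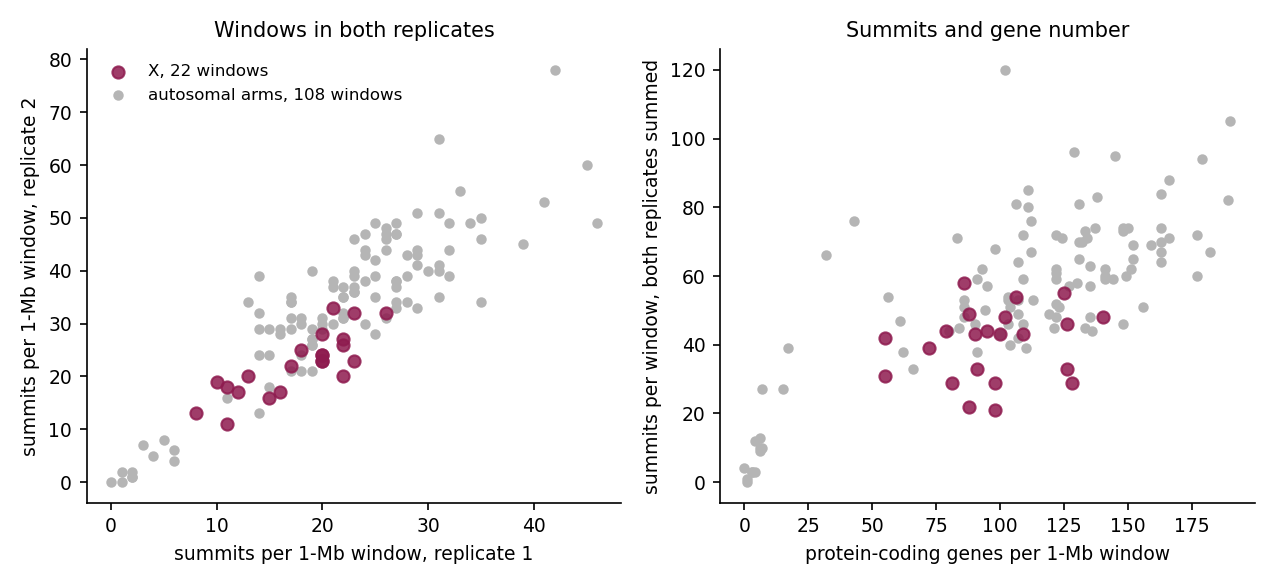
Left, summits per 1-Mb window in replicate 1 (x axis) and replicate 2 (y axis) for 22 windows of X and 108 of the autosomal arms; right, protein-coding genes per window (x axis) and summits of both replicates summed (y axis). X windows lie low in the autosomal cloud, between 8 and 26 summits in replicate 1. On the right, X windows hold 55 to 140 genes, and autosomal windows 0 to 190.

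By the sum of both replicates the richest window was the tip of the arm, the first 1 Mb, with 26 summits in replicate 1 and 32 in replicate 2. Its highest shared positions lay in elav, the RNA-binding protein gene used as a marker of neurons, next to CG3777 and CG43181 and inside CG32816, in ewg, which encodes the transcription factor Erect wing, and at 107779, 16591 bp from the nearest protein-coding gene, CG17636. By that sum the window from 16 to 17 Mb followed with 23 and 32 summits, and then the window from 1 to 2 Mb with 21 and 33, the highest count of replicate 2. The window from 16 to 17 Mb was led by shared positions in CG4768, in Arp2, an actin-nucleating subunit near the calcineurin gene Pp2B-14D, in CG4829 and in hang. By the same sum the windows with the fewest summits were those from 18 to 19 Mb, with 8 and 13, and from 14 to 15 Mb, with 11 in each replicate. They held 98 and 88 protein-coding genes, beside 86 in the first 1 Mb and 125 in the window from 16 to 17 Mb.

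In the window from 18 to 19 Mb the replicates agreed at 1 position alone, in CG42323, where replicate 1 had 28 fragments at 18426868 and replicate 2 had 25 at 18426843. The other 7 and 12 summits had no partner there within 500 bp. The window from 14 to 15 Mb held 7 shared positions. They included 2 inside Prp16, which encodes a splicing helicase (121 and 112 fragments at the higher, in replicates 1 and 2), the lower of them near l(1)G0469, 1 at 280 bp from dpr8 (43 and 54 fragments), and 1 that lay 189 bp from the serine tRNA gene tRNA:Ser-AGA-3-2 (86 and 96 fragments). Neighbouring X summits were a median of 34.9 kb apart in replicate 1 and 29.1 kb in replicate 2. Between X summits inside the limit, the longest stretch without a summit of either replicate ran from 9282533 to 9555082. It spanned 273 kb with 12 whole protein-coding genes. The stretch without summits in which the limit fell is left out of this ranking.

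Shared positions made up a smaller share of X summits than of autosomal summits in replicate 1, but not in replicate 2. A summit was called shared when the other replicate had one within 500 bp. In replicate 1, 242 of 390 X summits were shared (62.1%, interval 57.0 to 66.9%), against 70.8% on the autosomal arms (69.0 to 72.7%) and 69.1% of all its summits. In replicate 2, 242 of 493 were shared (49.1%, interval 44.6 to 53.6%), against 46.4% on the autosomal arms (44.8 to 48.0%) and 46.4% of all its summits. Both percentages on X count the same 242 positions, while the lists grew by a factor of 1.26 on X and 1.53 on the autosomal arms. In density, X had 0.703 times the shared summits of the autosomes in replicate 1 (interval 0.612 to 0.805) and 0.703 times in replicate 2 (0.611 to 0.804). Summits without a partner stood at 1.04 times the autosomal density in replicate 1 (0.869 to 1.25) and at 0.630 times in replicate 2 (0.551 to 0.719).

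The 242 shared positions of X were located closely. Their summits lay a median of 23.5 bp apart, and 189 of the 242 (78.1%) were within 50 bp of each other. On the autosomal arms the median was 22 bp and 83.3% were within 50 bp. Height percentiles of the paired summits went together over the 242 positions (Pearson's r = 0.85, Spearman's rho = 0.87, a description across sites). Autosomal pairs gave a rho of 0.89. Shared summits were also the higher ones. Their median percentile on X was 54.4 in replicate 1 and 66.6 in replicate 2, against 39.8 and 31.5 for X summits without a partner. Autosomal summits did likewise, with medians of 56.8 and 70.3 when shared and 37.4 and 33.7 without a partner.

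The highest shared position on X lay between MTPAP, which encodes the mitochondrial poly(A) polymerase, and CG12773. Replicate 1 piled up 220 fragments at 1349550 and replicate 2 195 fragments at 1349565, 15 bp away and outside both genes. The next lay inside Lrp4, which encodes a receptor of the LDL receptor family. It was at 15910996 in both replicates, the only shared position of X with the same base in each list, with 224 and 192 fragments, 126 bp inside an end of the gene. CycD, the gene of the G1 cyclin partner of the kinase Cdk4, ends 1320 bp from that base and had no summit within 1000 bp.

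The third position lay 345 bp inside alpha-Man-Ia, a Golgi mannosidase gene, with 216 fragments in replicate 1 and 159 in replicate 2. The fourth was inside elav and also inside arg, the arginase gene annotated over the same stretch, 2675 bp from the nearest elav end (166 and 186 fragments). Next came slgA, which encodes a proline dehydrogenase (180 and 171 fragments), and the gap between cm, an AP-3 adaptor subunit gene, and the bicistronic pair sloth1 and sloth2 (173 and 175 fragments). The gap between BORCS5 and CG15739 followed with 162 and 171 fragments. CG2909 and CG3032 also had an end within 1000 bp of the summits at alpha-Man-Ia and cm.

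Of the remaining 5 among the first 12, Cph had a summit far inside the gene, 46659 bp from its nearest end, with 171 fragments in replicate 1 and 158 in replicate 2. Cph encodes a zinc finger transcription factor, the homologue of mammalian BCL11 proteins. The others were CG5004 (172 and 156 fragments), the position 646 bp outside dnc and inside its neighbour CG3939 (155 and 165), the gap between sbr and Pgls (163 and 148), and a position at 6031840 without a protein-coding gene within 1000 bp (147 and 152). dnc encodes a cAMP phosphodiesterase needed for learning, and sbr the mRNA export receptor. The gene nearest to 6031840 was rux, an inhibitor of cyclin A-dependent kinase activity, at 3913 bp. Of these 12 positions, 5 lay outside any protein-coding gene and 11 had their summits within 50 bp of each other.

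**Figure D3:**
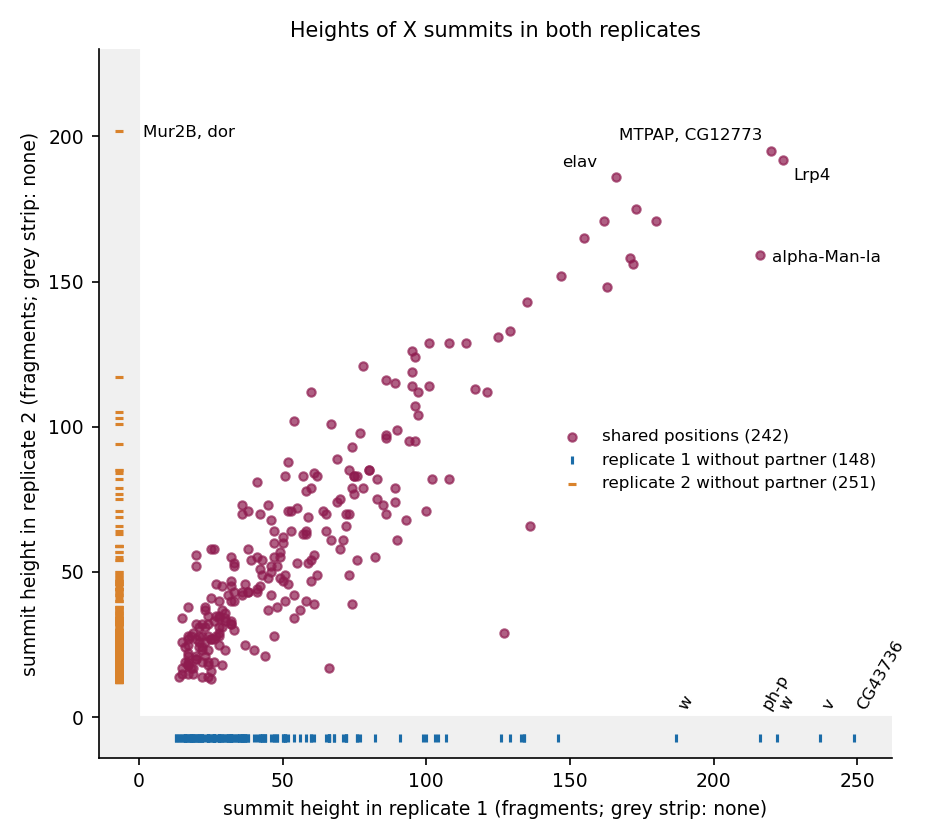
Heights in fragments of the 242 shared X positions in replicate 1 (x axis) and replicate 2 (y axis); ticks in the grey strips are the 148 summits of replicate 1 and the 251 of replicate 2 without a partner within 500 bp. Shared positions rise along a common line up to 224 and 195 fragments, while CG43736, v, w and ph-p stand at 187 to 249 fragments in replicate 1 alone.

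Among the tallest summits of X, a set appeared in replicate 1 alone. Of its 29 X summits above the 90th percentile, 18 were shared (62.1%, interval 42.3 to 79.3%), against 84.0% of such autosomal summits (78.9 to 88.3%). In replicate 2 it was 31 of 33 on X (93.9%, interval 79.8 to 99.3%), against 86.0% on the autosomes (82.1 to 89.3%). The interval for X in replicate 1 reached up to the lower end of the autosomal one, and 29 summits are few. Below the 90th percentile the shared percentage on X ran from 53.8 to 82.5% over the 4 lower height classes of replicate 1, against 59.0 to 84.0% on the autosomes, and was the lower value in each class. In replicate 2 the order was mixed: X stood above the autosomes in 3 of these 4 classes, by the most in the lowest class (23.0% on X and 13.9% on the autosomes), and below them between the 25th and 50th percentile (34.7% and 35.7%).

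The highest unshared summit of X was inside CG43736 at 6868747 with 249 fragments, the highest X summit of replicate 1, 10.4 kb from the nearest summit of replicate 2. The second lay inside v, the vermilion gene of eye pigment synthesis, at 10924681 with 237 fragments. w, the white gene of eye pigment transport, had summits at 2791494 with 222 fragments and at 2796444 with 187, both inside the gene, in replicate 1. Replicate 2 had none within 30 kb of either. As background, pUAST vectors carry a mini-white copy of w as their marker, and v serves as a marker in other transgene stocks. By their genotype labels both Dam-Pr-set7 samples have the same construct and driver, and these labels name no v marker. Reads from a transgene copy were not separated from reads of the native gene in these files, and their part in these summits was not tested.

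The fourth of these summits was inside ph-p, at 2137324 with 216 fragments. ph-p encodes a Polyhomeotic protein of the Polycomb repressive complex, and replicate 2 had only a summit of 42 fragments 325 bp outside its other end. ph-d, the neighbouring copy of that gene, had no summit within 1000 bp in either replicate. The rest of the 11 unshared high summits of replicate 1 lay inside Pits (146 fragments), su(sable) (134), Chsy (134), sws (133) and Hmt4-20 (129), and near CG1529 (126). These 6 genes were named after their values were seen. Hmt4-20 encodes the methyltransferase that adds further methyl groups to the lysine Pr-set7 acts on. In replicate 2 a summit of 202 fragments, the highest of X in that list, lay at 1666956 inside Mur2B and dor, 25.0 kb from the nearest summit of replicate 1. dor encodes a subunit of the vacuolar HOPS tethering complex. The next in replicate 2 were CG11417 with 117 fragments and CG6340 with 105, and the CG6340 summit lay 507 bp from a replicate 1 summit and so just past the 500 bp limit.

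**Figure D4:**
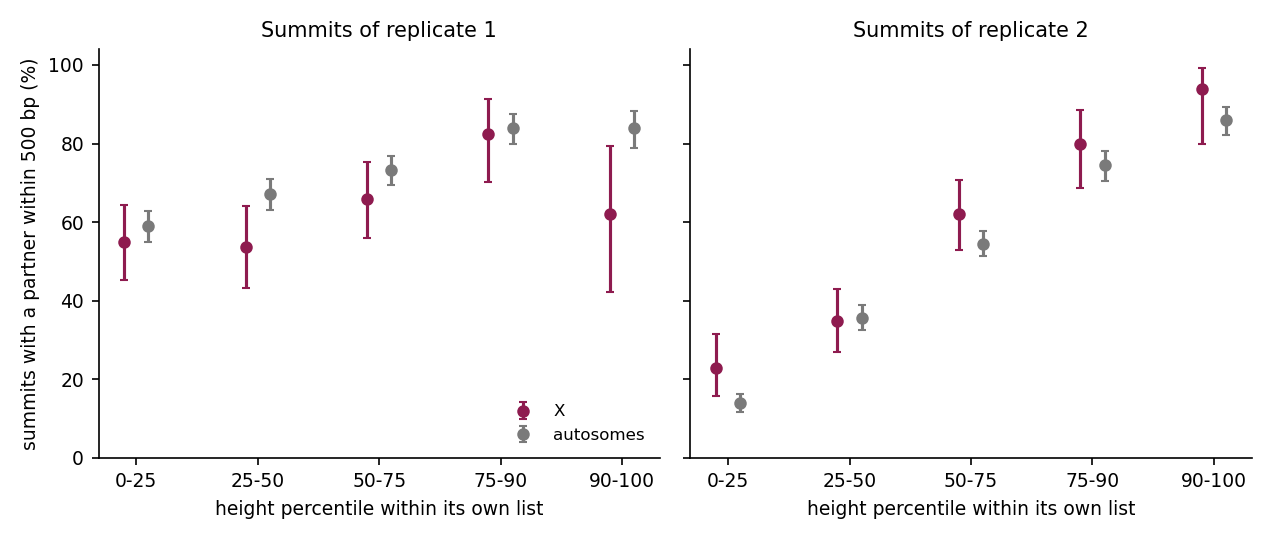
Percentage of summits with a partner of the other replicate within 500 bp, by height percentile class within each list, for X and the 4 autosomal arms in replicate 1 (left) and replicate 2 (right); points are percentages and bars 95% exact intervals. In replicate 1 the top class of X drops to 62.1%, against 84.0% on the autosomes, and in replicate 2 it stands at 93.9% and 86.0%.

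X summits lay inside genes more often than autosomal ones, as did the sequence of X itself. In replicate 1, 303 of 390 X summits (77.7%, interval 73.2 to 81.7%) were inside the span of a protein-coding gene, against 68.6% of autosomal summits. In replicate 2 it was 371 of 493 (75.3%, interval 71.2 to 79.0%), against 69.1%. Gene spans covered 74.2% of X up to the limit and 66.5% of the autosomal arms, so that summits exceeded the covered length by a factor of 1.05 and 1.01 on X in replicates 1 and 2, and by 1.03 and 1.04 on the autosomes.

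Gene ends were where X summits gathered. A summit lay within 1000 bp of an annotated end of a protein-coding gene in 200 of 390 cases in replicate 1 (51.3%, interval 46.2 to 56.3%) and in 223 of 493 in replicate 2 (45.2%, 40.8 to 49.7%). The same zone took up 24.3% of X, so the summits exceeded it 2.11 and 1.86 times. On the autosomal arms 55.3% and 49.3% of summits fell in a zone of 24.9%, an excess of 2.22 and 1.98 times. Shared X summits were in the zone in 52.9% of cases in replicate 1 and 53.3% in replicate 2, against 48.6% and 37.5% of those without a partner. The 2 intervals of replicate 1 overlapped (46.4 to 59.3% and 40.4 to 57.0%). Autosomal values were 57.5% and 57.4% for shared summits, against 49.9% and 42.2%. Deep inside genes, more than 5000 bp from any end, lay 19.7% of X summits in replicate 1 and 21.7% in replicate 2. On the autosomal arms it was 14.7% and 16.4% of summits. The share of sequence that deep inside genes is not given for X or the autosomes, so no excess over length can be read from these values.

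Several long genes of X held more than 1 shared position. The counts are not scaled to gene length. All of X had a mean of 11 shared positions per 1-Mb window, with 17.7 summits in replicate 1 and 22.4 in replicate 2. Whether any gene exceeded that rate was not tested. kirre, which encodes an immunoglobulin adhesion protein of myoblast fusion, spans 394149 bp and had 12 summits inside it in replicate 1 and 7 in replicate 2, with 4 shared. The w summits are counted in this span, since the coordinates of w fall within kirre. The 4 shared positions inside kirre were low, at 19 to 40 fragments in replicate 1 and 15 to 23 in replicate 2. rg, the A-kinase anchor gene rugose, and CG15465 are annotated over the same 169106 bp and also held 4 shared positions, the highest with 82 and 55 fragments. Cph, hwt, rsh and shakB, an innexin gene, had 3 shared positions each inside them.

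Shared positions at both ends of an X gene were found at Lrp4, CG8916 and spidey. No count of such autosomal genes is given, so they are not described as a trait of X. Lrp4 and CG8916 are neighbours and share the position at 15921296 (48 and 38 fragments) that lies between them. The far end of CG8916 carried summits of 74 and 93 fragments, 666 bp from Lcch3, a GABA receptor subunit gene. At spidey the higher of the 2 positions lay inside the adjacent gene snz (90 and 99 fragments).

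X genes were reached less often than autosomal genes. A gene counted as reached when both replicates had a summit within 1000 bp of either annotated end, which held for 14.3% of all 13922 protein-coding genes. On X up to the limit 225 of 2138 genes were reached (10.5%, interval 9.25 to 11.9%), against 1751 of 11645 on the autosomal arms (15.0%, 14.4 to 15.7%). Each autosomal arm was above X, from 14.4% on 2L to 15.7% on 2R. By replicate 1 alone 14.8% of X genes had such a summit, against 19.0% of autosomal genes and 18.3% of all genes. By replicate 2 alone it was 16.4%, against 23.6% of autosomal genes and 22.5% of all genes. By summits anywhere inside the gene in both replicates the values came close, at 8.93% on X (interval 7.76 to 10.2%), 9.95% on the autosomes (9.41 to 10.5%) and 9.85% of all genes.

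The 225 reached X genes rest on few summits. They draw on 144 summits of replicate 1 and 154 of replicate 2, and 161 of the genes (71.6%) share their highest replicate 1 summit with another reached gene. Assigning a summit to nothing but its closest gene end left 134 reached genes. In 208 of the 225 (92.4%) the highest summits of the replicates were within 500 bp of each other. Reached genes had a median length of 3851 bp, against 2429 bp for the other X genes.

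Cell cycle genes on X were reached in 5 of 21 cases, Rbf, Cdk7, Klp10A, Grip91 and Grip84. Over all lists 18 of 127 X genes were reached (14.2%), beside 10.5% of all X genes, and no list was tested. Klp10A, a microtubule-depolymerising kinesin, had the highest summits of the 5, with 114 fragments at 11136213 (replicate 1) and 129 at 11136219 (replicate 2), 905 and 899 bp inside the gene. Rbf, the retinoblastoma homologue that restrains S-phase entry, had 57 fragments at 801036 and 83 at 801009, 27 bp apart, also within 1000 bp of CG13359.

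Cdk7, the kinase that activates other cyclin-dependent kinases, had 27 and 46 fragments in replicates 1 and 2, at positions 12 bp apart. The gamma-tubulin ring genes Grip91 and Grip84 had 66 and 94, and 36 and 42 fragments. At Grip91 the summits lay 795 bp apart, that of replicate 1 inside the gene and that of replicate 2 in its neighbour g. At Grip84 they lay 22 bp apart, on either side of the end of the gene. No summit fell in or within 1000 bp of 12 of the 21, among them CycD, the replication helicase genes Mcm3 and Mcm6, the APC/C activator fzr and the cohesin gene SMC3. Over all X genes 72.5% had no such summit in either replicate, so a lack of summits was the usual state.

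Chromatin genes on X were reached in 4 of 20 cases, sov, HP1b, nej and HDAC6, beside 10.5% of all X genes. sov, a zinc finger protein gene of heterochromatin and transposon silencing, had 86 fragments 8 bp outside its end in replicate 1 and 116 fragments 2 bp outside it in replicate 2, and a second shared position inside the gene with 58 and 78. Near HP1b, a heterochromatin protein gene, the summits had 86 and 70 fragments at positions 29 bp apart, 612 and 641 bp outside HP1b and inside its neighbour APC4. nej, the gene of the acetyltransferase CBP, had 80 and 85 fragments at positions 6 bp apart. HDAC6, a cytoplasmic tubulin deacetylase gene, had 43 and 28 fragments 692 bp apart. Another 12 of the 20 were without a summit, including trr, fs(1)h, Hira and wds, beside 72.5% of all X genes.

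Of the 2 listed protein-coding genes of dosage compensation on X, mof was reached, beside 10.5% of all X genes. mof encodes the acetyltransferase of the dosage compensation complex, and its summits had 47 fragments at 5876109 (replicate 1) and 34 at 5876922 (replicate 2), 813 bp apart and so not shared. Sxl, the switch gene of sex determination, had none in or near it. The non-coding RNA genes of the complex differed between replicates. lncRNA:roX1 had a summit of 21 fragments inside it in replicate 1, and in replicate 2 the closest was 30 fragments at 2865 bp outside. roX2 had no summit within 5000 bp.

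Neural stem cell genes on X were reached in 1 of 9 cases (11.1%), close to the 10.5% of all X genes. The reached gene was N, which encodes the Notch receptor. Replicate 1 had 37 fragments at 3135079 and replicate 2 had 69 at 3135583, inside the gene and 504 bp apart, just past the 500 bp limit. The proneural genes ac, sc, l(1)sc and ase had no summit in or within 1000 bp of them, nor did the polarity genes baz and par-6, mud or Imp. The same held for 72.5% of all X genes. In the Notch list dx, which encodes the Notch regulator Deltex, had 94 and 95 fragments at positions 5 bp apart, and the same summits lay within 1000 bp of RpL7A. RpL7A was the 1 of 15 ribosomal protein genes on X that was reached, and 13 had no summit. Over all X genes these shares were 10.5% and 72.5%.

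In the Wingless list, 2 of 10 X genes were reached, nej, which is also in the chromatin list, and the kinase gene lic. Beside this and each later count in this paragraph stands the share over all X genes, 10.5%. lic had 51 and 40 fragments in replicates 1 and 2 and shares its summits with hep. The list, not these data, sets the membership. arm, the beta-catenin gene, and Myc had summits in both replicates inside the gene only. At arm replicate 1 had 100 and 20 fragments at separate places, and replicate 2 had 56 fragments, shared with the lower of them. Myc, a growth regulator, had 28 and 35 fragments in replicates 1 and 2 at positions 19 bp apart. sgg, the GSK3 kinase gene, had none. DNA damage genes were reached in 2 of 6 cases, DNAlig4 of end joining (74 and 39 fragments) and mei-9, an excision repair nuclease gene (20 and 27). raptor, a subunit of TOR complex 1, was the 1 of 9 insulin and growth genes reached, with 18 and 28 fragments. None of 8 EGFR, Ras and Hippo genes was reached, although Raf had internal summits of 25 fragments in each replicate, far apart in the gene.

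**Figure D5:**
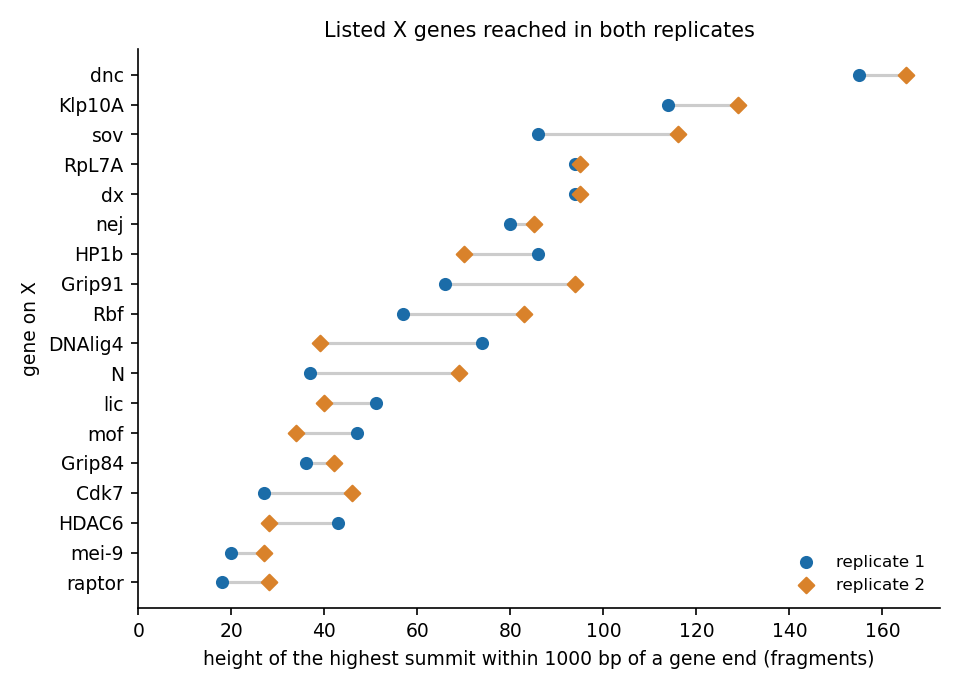
Height in fragments of the highest summit within 1000 bp of a gene end in replicate 1 and replicate 2 for the 18 listed X genes reached in both. Heights run from 18 fragments at raptor to 155 at dnc in replicate 1, and from 27 at mei-9 to 165 at dnc in replicate 2.

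Markers of other cell types on X were reached in 1 of 26 cases, beside 10.5% of all X genes. The reached gene was dnc among 11 neuron genes, through the summit in CG3939. The 3 glia, 5 muscle and 7 epidermis and cuticle genes had none reached. Inside neuron genes shared summits occurred at elav, in cac, a calcium channel gene (50 and 47 fragments), in norpA and in dnc. Of the muscle genes, Actn had a shared summit inside it (42 and 45 fragments). Over all X genes 8.93% had a summit inside in both replicates, and the 4 neuron genes span from 13992 bp (elav) to 167328 bp (dnc). y, the yellow gene of cuticle pigment, had no summit within 5000 bp in either replicate.

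Of the 232 lncRNA genes on X, 18 (7.76%) had a summit in or within 1000 bp in both replicates, close to the 7.04% of lncRNA genes on all arms. The highest were at lncRNA:enrr, which overlaps elav, and at lncRNA:CR44357, through the summits of 171 and 158 fragments inside Cph. Among antisense RNA genes, a separate class, asRNA:CR45611 and asRNA:CR45612 beside slgA stood highest. All of these rest on summits already described. Among 54 miRNA genes on X, 0 had such a summit in replicate 1 and 4 in replicate 2, beside 7.69% and 14.2% of miRNA genes on all arms. Of the 31 snoRNA genes, 0 had one in replicate 1 or replicate 2, beside 7.43% and 11.9% on all arms. None of these differences was tested.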

How the data were processed

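Genomic DNA of 4 samples was labelled by targeted DamID. DpnI cut the methylated sites, PCR amplified the fragments, and a MiSeq read them, per the labels' protocols. The tools named are MACS 1.4.2, Bowtie2 2.2.6 and bcl2fastq 2.19.0.316, and the build is dm6, per the submitters' processing notes. The control, cutoff and duplicate handling behind the calls are not given in the sources used here. For each sample analysed, the authors deposited a summit list, with 1-bp positions and a signal, the pileup height in fragments, not scaled to depth. Read depth is unknown, and precision is limited by the number of summits.

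Replicate numbers follow accession order and only name samples. Nothing states that they came from separate animals. Gene spans came from RefSeq (Release 6 plus ISO1 MT, the assembly dm6 names), with 13922 protein-coding genes on 6 arms. Strand, exons and genome sequence were not used here, so gene starts and 3' ends were not told apart, and the planned motif search was not run. Arm length was the last gene end or summit, and 22 Mb for X. Of 534 list names, 511 matched a symbol, 17 a synonym and 6 neither. Intervals are Clopper-Pearson, ratios from the X share of both counts, and medians from order statistics. PCR copies are not independent molecules, so intervals cover counting error only.

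Members and the 14 lists were chosen with earlier results of these data known. Named are the 12 highest shared positions, reached list members, 17 fixed genes, the 3 highest unshared summits per replicate, leading positions of extreme windows, and genes with shared positions at both ends or repeatedly inside. Alternatives varied distances, limits, windows, heights, gene rules and replicates. Functions were tested on simulated data. Tools were Python 3.11.15 with SciPy 1.17.1, pandas 2.3.3, matplotlib 3.10.9 and numpy 2.4.6.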

Additional observations from a re-analysis of the deposited data

How the results depend on the processing

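The density of X relative to autosomes stayed below 1 in all 6 alternatives tried, and the share of X genes reached relative to autosomes in all 8. In replicate 2 the density ratio moved to 0.732 per coding gene, 0.597 above the median height and 0.591 against autosomal windows with at least 50 genes, a setting chosen after seeing the data. The X share of all replicate 2 summits moved to 10.5% above the median height. Shared X summits moved to 67.7% (replicate 1) and 56.8% (replicate 2) within 2000 bp, and in replicate 2 to 54.2% within 1000 bp and 56.4% above the median height. Median summits per Mb above the median height were 8.5 and 10, as that setting keeps about every other summit. Spearman's rho between replicates over X windows moved from 0.80 to 0.53 with windows shifted by 0.5 Mb. The number of X genes reached was 135 within 500 bp, 134 by nearest end, 142 above the median height and 442 in either replicate; with replicate 1 or 2 left out it was 316 to 351. The gene share ratio moved from 0.700 to 0.898 by gene span, the setting in which X came closest to the autosomes, and was 0.694 to 0.780 with a replicate left out. Promoter motifs were not run. No paired analysis was possible because only the Dam-Pr-set7 samples were analysed and no result comes from a test. Unknown read depth limits what a missing summit can show.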
